A study of Homo sapiens with 6 samples.

Results

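The columns of the deposited count table are named by treatment and a numeric code, and the libraries were grouped here by that code, which 1 siCTR and 1 siCRP2 library share. Code A holds siCTR0412 and siCRP20412, code B siCTR0611 and siCRP20611, and code C siCTR1311 and siCRP21311, so that 6 of 6 libraries of the series entered. The comparison asked which genes differed between the codes, with treatment as a covariate. Code terms are shared by both treatments in that fit, so a gene that differed in 1 treatment only can also be called. What the codes stand for is stated neither in the labels nor in the file, and nothing ties a code to a labelled replicate number. Whether libraries that share a code share a culture or a day was therefore not tested, and p-values cover no spread other than that among these 6 libraries. All cells were MDA-MB-231, a mesenchymal-like, triple-negative human breast cancer line, kept in complete DMEM in a standard incubator. The siCTR cells received a non-targeting siRNA, and the siCRP2 cells (siCSRP2 in the sample titles) an siRNA against CSRP2, the gene of the cytoskeletal LIM protein CRP2. Harvest was at 65 h after transfection in the labels. One cell line and one CRP2 siRNA were used, and a code holds 2 libraries. Its contrasts thus rest on a single library per treatment.

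Cells of one line that are plated, transfected and harvested separately can differ in density, growth phase, nutrient and oxygen supply and serum exposure, and RNA sequencing registers these states alongside the treatment. Genes of mitosis are transcribed late in the cell cycle, TGF-beta and NF-kappaB drive secreted and matrix proteins, NRF2 governs antioxidant enzymes, and the mitochondrial genome is transcribed as long precursors from its own promoters. In RNA from a whole culture, fewer cells in a state and less RNA per cell cannot be told apart.

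Library totals ran from 17336798 counts in siCTR B to 39115778 in siCRP2 C, and TMM factors from 0.989 to 1.03. CSRP2 stood at 13.7, 11.7 and 11.4 CPM (read counts scaled to the size of the library) in siCTR and at 2.17, 1.78 and 1.89 CPM in siCRP2 for codes A, B and C, so no library went against its treatment label. All 8 marker genes of the line were present, VIM at 1357 to 2262 CPM. Of 15 markers of other cells, 10 had enough counts to test. ESR1, FOXA1, PDGFRA and CDH5 stayed under 0.2 CPM in each library. Others were present in every library, EPCAM at 22.22 to 36.57 CPM and CDH1 at 14.3 to 37.45 CPM. GATA3 stood at 12.13 to 17.98 CPM and PECAM1 at 4.602 to 21.49 CPM. The F test over codes, described below, called 5 of the 10, with EPCAM, CDH1, GATA3 and PECAM1 among them. It called 14.9% of all genes and 22.04% of protein-coding genes. The 10 markers together summed to 66.4 to 94.4 CPM, lowest in siCTR A, with 4 of them lower in A, against 6.28% of all genes. Their part in the results was not tested. Libraries of one treatment differed by far more than counting noise (chi-square over its degrees of freedom from 12.4 to 48.3), so none was taken for a copy of another.

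Of 23806 genes tested, 3553 differed between codes, or 14.9% (F test over both code terms, edgeR's quasi-likelihood test, adjusted p under 0.05). At least 2-fold between 2 codes was reached by 496 of them, 2.08% of all genes tested. DESeq2 called 1490 genes and limma-voom 2873 in the same design. Of protein-coding genes 22.04% were called (3274 of 14858), and of lncRNA genes 3.86% (171 of 4429). Only 2 residual degrees of freedom were left, and for 92.8% of genes edgeR took the spread from the trend over all genes. The size of the p-values therefore owes more to that trend than to the gene's own libraries, which is why every library is given below for most of the genes that are named. The 3553 became 2061 when siCRP2 C was left out and 1647 when siCTR C was left out.

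The codes were not equally far apart. Code C differed from A in 1694 genes that were higher (7.12%) and 1610 that were lower (6.76%). Code B differed from A in 939 higher (3.94%) and 840 lower genes (3.53%), and C from B in 521 higher (2.19%) and 381 lower genes (1.6%). Single libraries carried much of this. For C against A, 879 genes were called without siCTR C, 1829 without siCRP2 C and 1810 without siCTR A. For B against A, 592 were called without siCRP2 B, 821 without siCTR B, 754 without siCTR A and 1166 without siCRP2 C. For C against B, 171 were called without siCTR C, 346 without siCRP2 C, 301 without siCRP2 B and 222 without siCTR B. Set against the mean of the other codes, A had 1557 higher (6.54%) and 1494 lower genes (6.28%), C had 1385 higher (5.82%) and 1079 lower (4.53%), and B had 348 higher (1.46%) and 293 lower (1.23%). Of these genes, the code's libraries lay beyond both others in both treatments in 1412 higher and 1402 lower genes for A. For C it was 1170 and 965, and for B 229 and 248. Without siCTR A, siCTR C or siCRP2 B, the genes that set A apart became 1256, 1662 and 1857. Without siCTR C, siCRP2 C or siCTR B, those of C became 342, 1145 and 1438. Without siCRP2 B, siCRP2 C or siCTR B, those of B became 129, 155 and 175.

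Among the 3553 called genes, B lay between the other codes in both treatments in 1499 (42.2%), against 21.2% of the 13196 genes that averaged 1 CPM or more. The full order of the codes was the same in both treatments in 60.9% of the called genes and in 36.0% of the 13196. The F test favours genes whose code differences agree between treatments in these same libraries. Higher shares among called genes thus follow in part from that choice.

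Once the mean of its treatment was removed from each gene, libraries of one code lay next to each other. The first principal component held 60.9% of the variance over 13196 genes and placed A at 27.5 and 18.8 (siCTR and siCRP2), B at -4.29 and -6.18, and C at -23.2 and -12.7. The second held 19.7% and set B apart, at 14.65 and 13.03. Without that removal, the treatments were separated by the first component (67.4%) and the codes by the second (19.98%). Of the sum of squares of log2 CPM, a gene's median share for code was 24.8%, for treatment 60.4% and for what the codes did not share between treatments 6.18%. Code held the largest share in 4068 genes (30.8%).

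**Figure D1:**
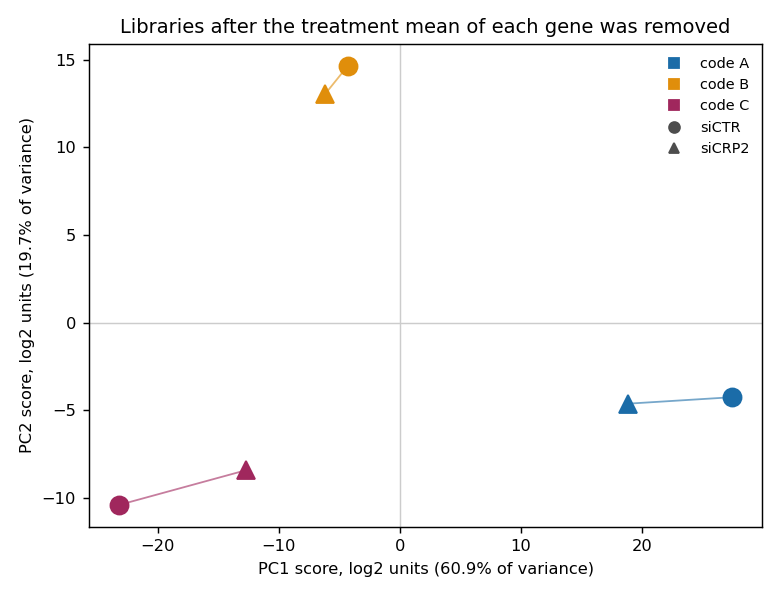
Scores of the 6 libraries on the first 2 principal components of log2 CPM over 13196 genes, after the mean of each treatment was taken from each gene. Colours stand for codes, circles for siCTR and triangles for siCRP2, and a line joins the 2 libraries of a code, which lie nearer to each other than to any library of another code.

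The difference between 2 codes can be measured in siCTR and in siCRP2 libraries that have no library in common. Across 13196 genes the differences of C and A had Pearson's r = 0.694 (Spearman's rho = 0.641) between treatments, those of B and A r = 0.515 (rho = 0.454) and those of C and B r = 0.436 (rho = 0.442). Genes are not independent replicates, so no p is given. Of 528 genes at least 2-fold apart between C and A in siCTR, 502 (95.1%) went the same way in siCRP2, with a median of 0.69 on the log2 scale there. For B and A it was 255 of 308 (82.8%), and for C and B 102 of 131 (77.9%). The spread of the differences was larger in siCTR than in siCRP2 for each pair of codes, most for C and A (SD across genes 0.46 and 0.33 on the log2 scale), where the points in the plot of both treatments lie flatter than the diagonal.

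**Figure D2:**
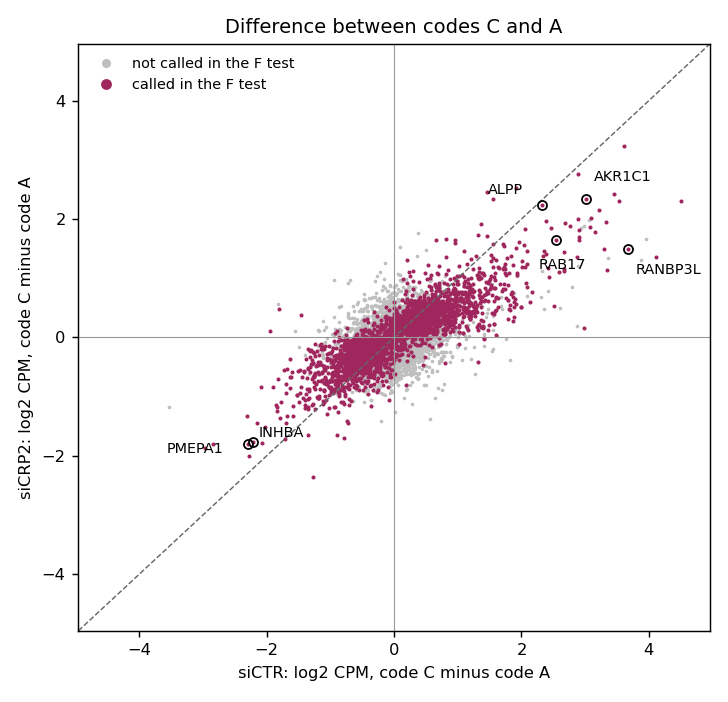
Each point is 1 of 13196 genes, with the log2 CPM difference of code C minus code A in siCTR on the x axis and in siCRP2 on the y axis. The dashed line marks equal differences, coloured points were called in the F test, and most genes far from 0 on one axis lie on the same side on the other (r = 0.694).

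PMEPA1, which encodes a membrane protein that dampens TGF-beta signalling, had the smallest p among the higher genes of code A. It stood at 155, 38.4 and 33.3 CPM in siCTR and at 60.7, 17.8 and 17.8 CPM in siCRP2 (codes A, B, C). The A library lay above both others in each treatment, by 1.95 on the log2 scale against their mean (SE 0.075). On GRCh38 PMEPA1 spans chromosome 20 from 57648392 to 57711536, minus strand.

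The other 5 genes named as higher in A were COL6A3, INHBA, JAG1, PLAU and LIPG. COL6A3, a chain of collagen VI, stood at 195, 88.7 and 43.9 CPM in siCTR and at 38.7, 25.9 and 14.2 CPM in siCRP2. INHBA, the activin A subunit, stood at 9.80, 2.80 and 1.92 CPM in siCTR and 16.4, 4.84 and 4.63 CPM in siCRP2, 1.90 higher in A on the log2 scale (SE 0.14). The Notch ligand gene JAG1, the urokinase gene PLAU and LIPG, which encodes endothelial lipase, were higher by 0.94, 0.82 and 1.02. In PMEPA1 and PLAU the other codes lay close together, while COL6A3, JAG1 and LIPG fell in both treatments from A through B to C.

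Lower in A than in both other codes was ALPP, which encodes placental alkaline phosphatase. It stood at 30.4, 75.4 and 152 CPM in siCTR and at 39.1, 128 and 185 CPM in siCRP2, so that the codes kept one order in both treatments (A against the others -1.90 on the log2 scale, SE 0.078; C against the others 1.52, SE 0.067). Its near-identical paralogs may share its reads. RAB17, a small GTPase of epithelial membrane traffic, stood at 14.6, 45.2 and 85.5 CPM in siCTR and 6.19, 11.2 and 19.5 CPM in siCRP2. ALPP and RAB17 rose across the codes in the same order in both treatments, and both were also among the 6 higher genes of C.

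The complement gene C3 stood at 115, 244 and 329 CPM in siCTR and 119, 253 and 236 CPM in siCRP2. AKR1C3, an aldo-keto reductase, was lower in A by 1.28 on the log2 scale. RANBP3L, which encodes a Ran-binding protein, differed most among the 6 lower genes, at 2.45, 18.6 and 32.4 CPM in siCTR and 0.265, 1.36 and 0.896 CPM in siCRP2, where it rested on 5, 29 and 35 counts. The difference for RANBP3L was -3.23 (SE 0.20), and in siCRP2 the order of B and C was the reverse of that in siCTR.

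Among the higher genes of code C was SLC6A12, a betaine transporter. It stood at 6.87, 13.98 and 36.1 CPM in siCTR and at 1.80, 3.61 and 7.25 CPM in siCRP2, 1.75 higher in C than in the others on the log2 scale (SE 0.12). TNFSF9, the ligand of the costimulatory receptor 4-1BB, was higher in C by 1.12. Both genes rose from A through B to C in each treatment.

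Lower in C than the mean of the other codes were COL6A3, PMEPA1 and JAG1, named above, with ENPP1, SCG2 and SOX4. PMEPA1 hardly differed between C and B (-0.10 on the log2 scale, adjusted p = 0.78, edgeR). ENPP1, an ectoenzyme that cleaves nucleotides, stood at 272, 253 and 115 CPM in siCTR and 130, 108 and 70.6 CPM in siCRP2. The secretogranin gene SCG2 stood at 49.9, 30.7 and 13.96 CPM in siCTR and 17.3, 16.99 and 7.27 CPM in siCRP2. The transcription factor gene SOX4 was lower by 1.06 on the log2 scale (SE 0.088). In ENPP1, and in SCG2 in siCRP2, A and B lay closer to each other than either lay to C.

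Code B differed from the others in fewer genes and by less. SAA2, an acute-phase serum amyloid A whose reads may be shared with SAA1, stood at 17.3, 48.6 and 39.8 CPM in siCTR and 6.93, 21.9 and 12.7 CPM in siCRP2. SPINK4, a protease inhibitor of secretory epithelium, stood at 9.24, 29.4 and 23.8 CPM in siCTR and 12.7, 37.4 and 25.5 CPM in siCRP2. In both, A was the lowest code and B the highest, and SAA2 and SPINK4 were higher in B by 1.05 and 1.02 on the log2 scale. The disulfide isomerase gene AGR2, the prostaglandin synthase gene PTGES and TNFSF10, which encodes the death ligand TRAIL, were higher by 0.76, 0.65 and 0.60. In SAA2, SPINK4 and PTGES the difference of A from the others was larger, at -1.32, -1.40 and -1.04. It was -0.77 in AGR2 and -0.11 in TNFSF10. PTGES hardly differed between C and B (-0.17, adjusted p = 0.278, edgeR). CA12, a carbonic anhydrase of the cell surface, is taken up with the hypoxia genes below.

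The 6 lower genes of B included AMIGO2, an adhesion molecule, at 99.5, 54.0 and 94.7 CPM in siCTR and 88.0, 56.1 and 81.4 CPM in siCRP2. PABPC1L, a poly(A)-binding protein, was lower by 0.65 on the log2 scale, and the other 4 were transcripts of the mitochondrial genome. All 36 pairings of a code and a gene that the rule chose for it remained called in that contrast with RLE scaling, filterByExpr, DESeq2 and limma-voom and when any 1 library was left out. The rule took the lowest p-values in these same libraries, so that outcome was largely set by the choice.

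**Figure D3:**
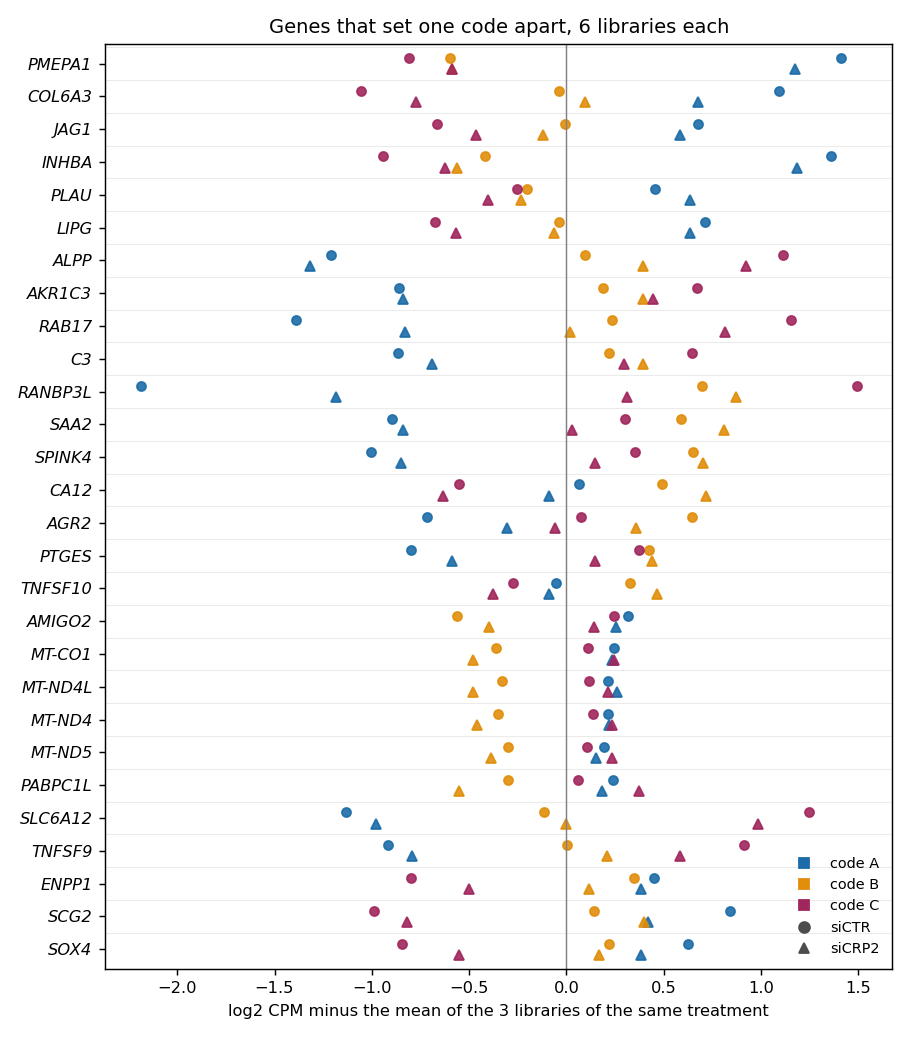
Each row is 1 gene named by rule, with its 6 libraries as log2 CPM minus the mean of the 3 libraries of the same treatment on the x axis. Colours stand for codes, circles for siCTR and triangles for siCRP2. From the top, PMEPA1 to RANBP3L were named for A, SAA2 to PABPC1L for B, and SLC6A12 to SOX4 for C. ALPP, RAB17, COL6A3, PMEPA1 and JAG1 were named for C as well, although PMEPA1 hardly differed between C and B.

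Genes of the G2 and M phases were higher in code A in both treatments. Of 61 members tested, 42 were higher in A and none was lower in edgeR's test (at an unadjusted p under 0.05, 50 and 0; with DESeq2 30 and 0, with limma-voom 40 and 0, and with a GC and length offset 42 and 1), against 6.54% and 6.28% of all genes. Of the other protein-coding genes at 1 CPM or more without the promoter letters TTTGAA, described below, 10.5% were higher in A and 10.2% lower. The median difference of the G2 and M list was 0.27 on the log2 scale, against 0.02 over all genes tested. KIF20A, a kinesin of cytokinesis, stood at 145, 107 and 88.7 CPM in siCTR and at 60.8, 53.1 and 42.0 CPM in siCRP2. CCNB2, a cyclin that drives entry into mitosis, stood at 74.3, 54.1 and 45.7 CPM in siCTR and 67.2, 53.5 and 46.9 CPM in siCRP2. In both genes the codes kept one order in each treatment, and in 51 of the 61 members the A library lay above both others in both treatments, as it did in 18.6% of all genes tested.

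The kinesin KIF15 and the kinetochore protein NUF2 were higher in A by 0.54 and 0.47. Without siCTR A, 19 members were higher, and without siCRP2 C, 27. In C, 25 members were lower, against 4.53% of all genes. The 25 became 1 without siCTR C, 10 without siCRP2 C and 16 without siCRP2 B. Of 52 DNA replication genes, 22 were higher in A and 0 lower, against 6.54% and 6.28% of all genes, with a median of 0.17. The 22 fell to 7 with DESeq2 and to 2 without siCTR A and ranged from 8 to 28 without any other library. The median log2 CPM difference of this list in A from the other codes was 0.307 in siCTR and 0.063 in siCRP2. WDHD1, a replisome factor, was higher by 0.46.

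Promoters of mitotic genes carry the cell cycle element CHR (TTTGAA) and CCAAT boxes, and 3 promoters are shown because their genes lead the lists in which A stood highest. They come from RefSeq (GRCh38.p14), run from 250 bases before to 50 bases after an annotated start and are written 5′ to 3′ on the gene's strand, which is the plus strand for all 3. Capitals mark TTTGAA and CCAAT on either strand in CCNB2 (chr15:59104896-59105195, 1 and 4 matches) and KIF20A (chr5:138178862-138179161, 0 and 2 matches), and the metal response core TGCNCNC on either strand in MT2A (chr16:56608334-56608633, 8 matches).
CCNB2: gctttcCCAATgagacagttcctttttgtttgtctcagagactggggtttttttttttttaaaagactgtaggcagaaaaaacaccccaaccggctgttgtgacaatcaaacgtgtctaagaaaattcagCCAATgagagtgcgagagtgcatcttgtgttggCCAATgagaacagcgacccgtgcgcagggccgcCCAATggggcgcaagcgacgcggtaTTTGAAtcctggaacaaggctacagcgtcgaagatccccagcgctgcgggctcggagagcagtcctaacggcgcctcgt
KIF20A: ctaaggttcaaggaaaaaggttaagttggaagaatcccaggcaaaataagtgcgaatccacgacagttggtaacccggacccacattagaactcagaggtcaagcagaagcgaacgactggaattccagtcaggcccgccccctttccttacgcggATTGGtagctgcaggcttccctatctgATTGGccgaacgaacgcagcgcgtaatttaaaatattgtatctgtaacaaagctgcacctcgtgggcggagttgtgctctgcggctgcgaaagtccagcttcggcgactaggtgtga
MT2A: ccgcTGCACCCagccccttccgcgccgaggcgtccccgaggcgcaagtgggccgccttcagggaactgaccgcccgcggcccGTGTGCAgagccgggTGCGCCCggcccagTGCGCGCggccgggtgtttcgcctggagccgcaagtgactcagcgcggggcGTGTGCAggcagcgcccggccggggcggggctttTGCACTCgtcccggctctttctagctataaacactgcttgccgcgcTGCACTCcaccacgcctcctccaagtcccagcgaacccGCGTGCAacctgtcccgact

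RefSeq held 65 promoters for 53 of the 61 G2 and M genes. TTTGAA was in 39 of them (60%), against 15.2% of all 35116 promoters and 1 of 53 promoters of DNA replication genes. CCAAT was in 76.9%, against 34.6% of all, and both were in 50.8%, against 5.9%. Within the G2 and M list, members with and without the letters differed little in their medians. The 35 protein-coding members at 1 CPM or more with TTTGAA had a median of 0.28 on the log2 scale in A, and the 17 without it 0.27. Of 1290 other genes with TTTGAA, 15.6% were higher in A and 12.5% lower, and of 8394 others without it 10.5% and 10.2%.

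MT2A, a metallothionein that binds zinc and copper, was also higher in A. It stood at 226, 118 and 126 CPM in siCTR and at 166, 104 and 101 CPM in siCRP2, 0.80 higher on the log2 scale (SE 0.065). MT1E stood at 32.8, 18.1 and 17.6 CPM in siCTR and 28.9, 19.1 and 18.5 CPM in siCRP2, and MT1X was higher by 0.64. In MT2A and MT1E the A library was the highest of each treatment and the other codes lay close together. Metallothionein genes are near-identical, so reads may be split among them. TGCNCNC was in 8 of 10 promoters of the metallothionein and zinc transporter list, a list of which RefSeq matched 8 of 14 genes, and in 55.9% of all promoters.

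Of 25 TGF-beta targets tested, 12 were higher in A and 3 lower, against 6.54% and 6.28% of all genes, with a median of 0.17. TGFBI, a matrix protein named for its induction, stood at 477, 268 and 148 CPM in siCTR and at 146, 124 and 75.9 CPM in siCRP2. LTBP2, which belongs to the latent TGF-beta binding proteins, stood at 71.6, 38.5 and 38.8 CPM in siCTR and 36.1, 22.9 and 20.4 CPM in siCRP2. SMAD7, the inhibitory SMAD, was higher by 0.59. The 3 that were lower were ID1 and ID3, targets that BMP signalling raises, at -0.96 and -1.82, and BAMBI, a decoy receptor, at -0.47. Without siCTR A, 1 was lower.

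Of 28 targets of SRF and MRTF, which drive actin and contractile genes, 9 were higher in A and 1 lower. Of all genes 6.54% were higher in A and 6.28% lower, shares that also stand beside the collagen and YAP-TEAD counts below. The 9 became 3 without siCTR A and 5 without siCRP2 B, siCRP2 C or siCTR C. The median log2 CPM difference of the SRF and MRTF targets in A from the other codes was 0.195 in siCTR and 0.004 in siCRP2. Matrix genes and targets of the mechanosensitive YAP-TEAD complex moved in both directions. Of 25 collagens, 7 were higher and 8 lower in A (3 and 7 without siCRP2 C, 4 and 7 without siCTR B, 5 and 5 without siCTR A). COL12A1 stood at 279, 498 and 692 CPM in siCTR and at 299, 538 and 618 CPM in siCRP2, the reverse order of COL6A3. Of 25 YAP-TEAD targets, 4 were higher and 10 lower in A, with 2 higher without siCRP2 B, siCRP2 C, siCTR A or siCTR C, and 6 lower without siCTR A and 5 without siCTR C. CCN2 was higher in A by 0.75, at 174, 80.4 and 90.9 CPM in siCTR and 97.2, 73.2 and 68.9 CPM in siCRP2, while its relative CCN1 was highest in C, at 673, 643 and 1101 CPM in siCTR and 2093, 2103 and 2444 CPM in siCRP2. The matrix metalloproteinases had 6 of 18 tested members called (33.3%), against 14.9% of all genes and 22.04% of protein-coding genes. Without siCTR C 2 were called, and with DESeq2 3. In C, 3 metalloproteinase genes were higher and 2 lower, against 5.82% and 4.53% of all genes. MMP14, the membrane-anchored protease of invadopodia, was among the 2. It stood at 842, 688 and 517 CPM in siCTR and 368, 362 and 315 CPM in siCRP2, 0.38 lower in C on the log2 scale. MMP9 and MMP13 were under 1 CPM in every library and were not called (adjusted p = 0.956 and 0.966, edgeR's F test).

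NF-kappaB targets, cytokines and chemokines mostly stood lowest in A. Their median was -0.92 on the log2 scale against the other codes. Of 30 tested, 11 were lower and 2 higher, against 6.28% and 6.54% of all genes. Within the treatments the median of the list was -1.34 in siCTR and -0.51 in siCRP2. BIRC3, an apoptosis inhibitor that NF-kappaB induces, stood at 130, 311 and 295 CPM in siCTR and at 149, 234 and 259 CPM in siCRP2. CSF1, the macrophage growth factor, stood at 795, 1678 and 1875 CPM in siCTR and 366, 542 and 500 CPM in siCRP2. In BIRC3 and CSF1, A was the lowest of each treatment, as it was in 21 of the 30 members and in 17.4% of all genes tested.

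The chemokine CXCL1, singled out after its values were seen, is an example of a member that was not called. It stood at 9.36, 69.9 and 138 CPM in siCTR and at 12.3, 27.6 and 30.5 CPM in siCRP2. The order of the codes was the same in both treatments, but the sizes were not, and CXCL1 did not pass (adjusted p = 0.506, edgeR's F test). The robust fit gives such genes a spread of their own. Without robust estimation 23 members were lower in A, and with limma-voom 23 as well, but with filterByExpr 6 and with DESeq2 13. Leaving out siCRP2 A gave 23 and siCRP2 C 18. IL24, a cytokine of the IL-10 family, differed by -2.20 in A and by 1.99 in C.

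NRF2 targets were lower in A and higher in C. Of 29 tested, 16 were lower in A and none higher in edgeR's test (unadjusted 19 and 0, DESeq2 15 and 0, limma-voom 15 and 0). In C, 15 were higher, 7 without siCRP2 C and 4 without siCTR C. Of all genes 6.28% were lower in A and 5.82% higher in C. The aldo-keto reductase AKR1C1 stood at 53.8, 213 and 437 CPM in siCTR and at 20.8, 83.7 and 105 CPM in siCRP2, and AKR1C2 at 9.04, 43.5 and 77.7 CPM in siCTR and 5.34, 19.8 and 21.9 CPM in siCRP2. Both rose in the same order in each treatment, by amounts that are uncertain singly because AKR1C1, AKR1C2 and AKR1C3 are near-identical in sequence. SQSTM1, the autophagy receptor p62, stood at 465, 752 and 1023 CPM in siCTR and 582, 740 and 822 CPM in siCRP2. The ferritin chains FTH1 and FTL were lower in A by 0.69 and 0.60. NQO1 was lower by 0.31, while HMOX1 was called in the F test with -0.20 in A, which did not pass by itself (adjusted p = 0.131, edgeR). NFE2L2, the gene of NRF2 itself, was not called (141, 158 and 147 CPM in siCTR, 156, 162 and 164 CPM in siCRP2).

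Of 36 lysosome and autophagy genes, 12 were lower in A and 1 higher, against 6.28% and 6.54% of all genes. The 12 became 7 when any 1 siCRP2 library or siCTR C was left out. CTSD, the protease cathepsin D, was lower by 0.61. Of 32 replication-dependent histone genes with enough counts, 6 were lower in A and none higher in edgeR's test (unadjusted 8 and 0; DESeq2 4 and 0, limma-voom 5 and 0). H1-2 stood at 14.8, 27.3 and 26.5 CPM in siCTR and at 13.9, 26.4 and 26.0 CPM in siCRP2, and H2BC5 was lower by 0.91. Most messages of these genes lack a poly(A) tail and the libraries were made from mRNA, so the counts cover what was captured, and 32 of 57 listed genes had enough counts.

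**Figure D4:**
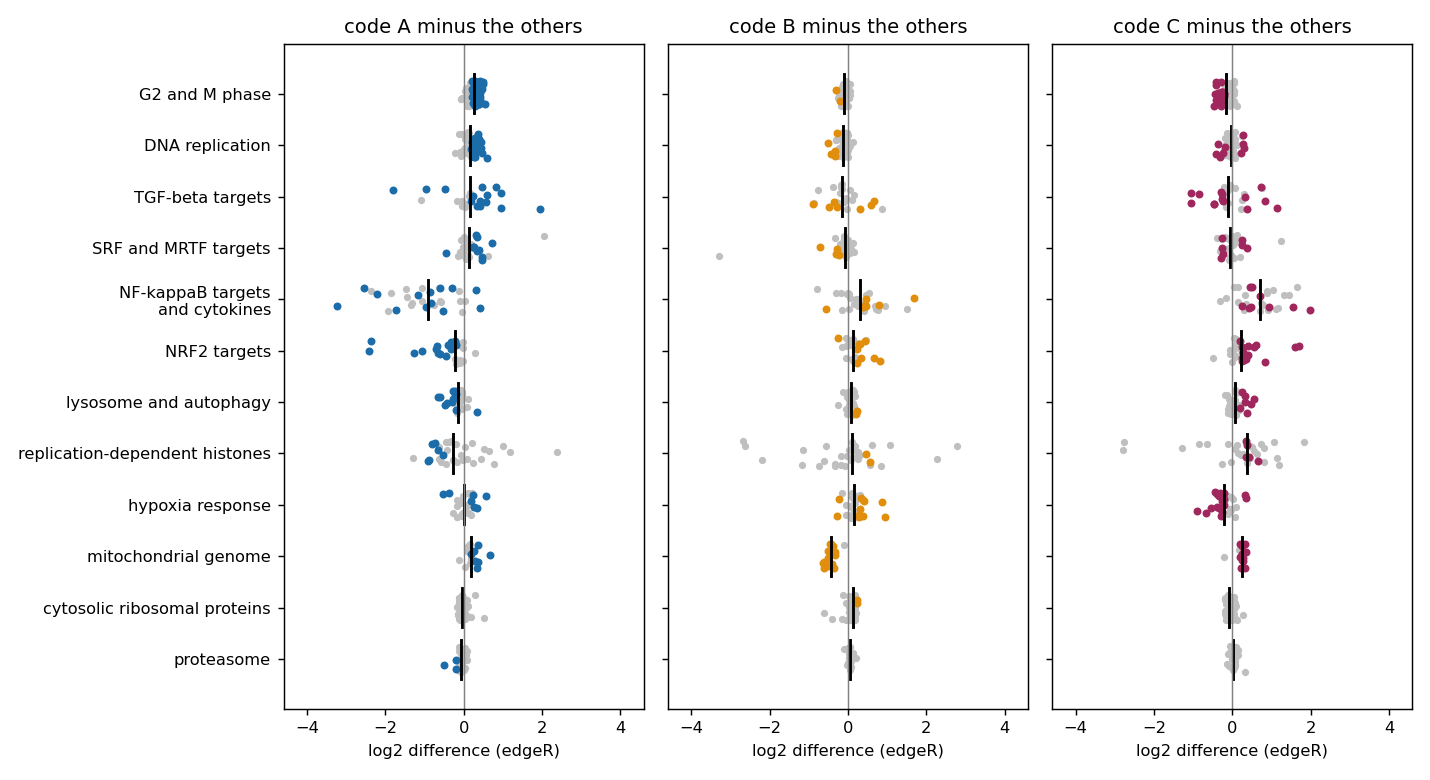
Log2 difference of each code against the mean of the others for the tested members of 12 gene lists, 1 point per gene, with the median as a black bar. Coloured points passed at an adjusted p under 0.05. The G2 and M list lies to the right of 0 in A, the NF-kappaB and NRF2 lists to its left, and the mitochondrial genome to the left in B. Ribosomal protein and proteasome genes stay near 0, with a median of 0.13 for ribosomal protein genes in B.

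Transcripts of the mitochondrial genome were lowest in B. Of 15 tested, 14 were lower in B and none higher in edgeR's test (unadjusted 14 and 0, DESeq2 13 and 0, limma-voom 14 and 0). Of all genes 1.23% were lower in B. The median of the list was -0.45 on the log2 scale. MT-CO1, a subunit of cytochrome oxidase (mitochondrial genome, 5904 to 7445), stood at 3755, 2467 and 3422 CPM in siCTR and at 4360, 2650 and 4384 CPM in siCRP2. MT-ND4, a subunit of complex I, stood at 3523, 2377 and 3329 CPM in siCTR and 3724, 2328 and 3767 CPM in siCRP2. In both genes A and C lay close together, and B lay below. The mitochondrial share of all counts was 1.85% and 1.89% in B and 2.41% to 2.84% in the other libraries.

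The exception was MT-ND3, at 342, 360 and 417 CPM in siCTR and 447, 435 and 516 CPM in siCRP2, with -0.11 in B (adjusted p = 0.626, edgeR). MT-ND6, the only protein gene of the list on the light strand, stood at 49.3, 28.9 and 29.5 CPM in siCTR and 53.2, 32.4 and 39.4 CPM in siCRP2. In contrast to MT-CO1, C lay nearer to B than to A. The count of 14 fell to 6 without siCRP2 B and to 6 without siCRP2 C. Of the nuclear genes of the respiratory chain, 1 of 71 was called in the F test (1.41%, against 14.9% of all genes), and their median in B was 0.08.

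**Figure D5:**
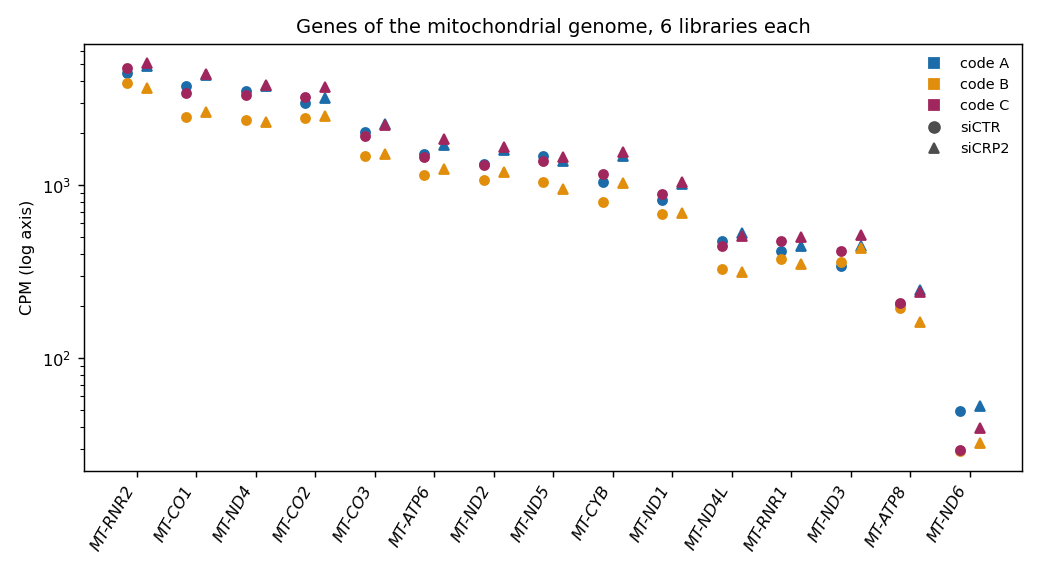
CPM of the 15 genes of the mitochondrial genome in each of the 6 libraries on a log axis, genes ordered by mean. Colours stand for codes, circles for siCTR and triangles for siCRP2. The B library is the lowest of its treatment in 14 genes in both treatments, the exception being MT-ND3 (11.3% of all genes tested were lowest in B in both).

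Many hypoxia genes were lower in C, and some were higher in B. Of 30 tested, 9 were higher in B and 2 lower, against 1.46% and 1.23% of all genes. In C, 17 were lower and 2 higher, against 4.53% and 5.82% of all genes. CA9, a carbonic anhydrase that serves as a hypoxia marker, stood at 15.9, 25.9 and 12.9 CPM in siCTR and at 6.24, 12.1 and 5.43 CPM in siCRP2. CA12 stood at 73.8, 99.3 and 48.1 CPM in siCTR and 10.6, 18.7 and 7.27 CPM in siCRP2. In both genes B was the highest and C the lowest of each treatment. NDRG1, a stress-induced growth regulator, was 0.37 higher in B, and EGLN3, a prolyl hydroxylase that acts on HIF, 0.43 lower in C. The 17 became 3 without siCRP2 C and 10 without any other library but siCTR A, which left 17, and the 9 became 3 without siCRP2 C or siCRP2 B and 5 without siCTR B. PLOD2 went the other way and was higher in C by 0.36. BHLHE40 was highest in A and lower in B by 0.28, at 283.6, 217.5 and 221.8 CPM in siCTR and 279.3, 166.1 and 159.6 CPM in siCRP2.

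TXNIP, a glucose-sensing MondoA target that restrains glucose uptake, stood at 572, 615 and 333 CPM in siCTR and at 499, 484 and 314 CPM in siCRP2, with the relative ARRDC4 also lower in C, by 0.71. HSPH1, a chaperone of the HSP110 family, stood at 218, 332 and 526 CPM in siCTR and 268, 302 and 408 CPM in siCRP2, one of 6 of 20 heat shock genes called. The 6 are 30% of the list, against 14.9% of all genes and 22.04% of protein-coding genes. All 6 were higher in C, 3 without siCRP2 C and 2 without siCTR C. Interferon-stimulated genes split. OASL and IFIT1 were higher in C by 0.69 and 0.47, and PSMB9 and TRIM22 lower by 0.57 and 0.50. Of the 45, 9 were higher and 9 lower, against 5.82% and 4.53% of all genes. Without siCRP2 C the 9 and 9 became 5 and 2, without siCTR C 7 and 1, without siCRP2 B 9 and 3 and without siCTR B 8 and 6.

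Of 79 cytosolic ribosomal protein genes 3 were called in edgeR's F test (3.80%), against 14.9% of all genes. The count depended on the setting, at 10 with limma-voom, which called 2873 of all 23806 genes, 13 without siCTR A, 7 with a GC and length offset, 2 with DESeq2 and 0 without a filter on low counts or without any 1 of siCRP2 B, siCRP2 C, siCTR B and siCTR C. In 44 of the 79 the B library was the highest of both treatments, as in 12.4% of all genes tested. Their median in B was 0.13, and 38 were higher and 2 lower in B at an unadjusted p under 0.05. Of all 23806 genes tested, 2710 passed that threshold for B in either direction. Of 31 proteasome genes 1 was called and of 43 ribosomal RNA processing genes 3.

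The codes also differed by base composition. From the lowest to the highest quintile of genes by GC content, the median difference of C against A ran from -0.10 to 0.09 on the log2 scale and that of C against B from -0.06 to 0.11, while that of B against A stayed between -0.03 and 0.02. With an offset for GC content and length 3782 genes were called, 3130 of them among the 3553. The part of GC content in the differences of the named genes was not tested beyond that offset.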

How the data were processed

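Poly(A)-selected RNA from 6 libraries of MDA-MB-231 cells was sequenced, and the authors deposited raw counts per gene from STAR aligned to GRCh38 (hg38 in the processing notes), not normalised. For the aligner version, the annotation and the strand setting: not given in the sources used here. Therefore genes on opposite strands that overlap, overlapping mitochondrial genes and near-identical copies may share reads. Symbols and positions were taken from GENCODE 44, which held 57754 of 58395 identifiers. The 23806 genes counted in 2 or 3 of the 3 libraries of either treatment were tested in edgeR 4.0.16 (R 4.3.3) with TMM scaling and a robust quasi-likelihood fit of treatment plus code, and p-values were adjusted by the Benjamini-Hochberg procedure over all genes tested and called at 0.05. CPM are counts scaled to the TMM-adjusted library size, and log2 CPM used a prior count of 2. A single count was worth 0.0256 to 0.0577 CPM before TMM scaling.

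Each code was set against each other code and against the mean of the others. The alternatives were RLE scaling, other filters on low counts, DESeq2 1.42.0, limma-voom (limma 3.58.1), code without treatment, libraries thinned to the smallest total, a non-robust fit, a GC and length offset and the omission of each library. Named for each code were 6 protein-coding genes in each direction, those of lowest p, if the F test called them, their mean was at least 5 CPM and the libraries of that code lay beyond both others in both treatments, together with up to 4 members per list with the smallest p. CSRP2, ESR1, FOXA1, PDGFRA, CDH5, SMAD7, ID1, ID3, BAMBI, CCN1, MMP9, MMP13, CSF1, CXCL1, FTH1, FTL, NQO1, HMOX1, NFE2L2, MT-ND3, NDRG1, EGLN3, PLOD2, PSMB9 and TRIM22 were outside this rule and were named after their values were seen. Some genes are not reported here. The codes and the gene lists were chosen with earlier results of these data known. Counts per list are descriptions, and no set test was run. The shares of all genes beside them include lncRNA genes (3.86% called in the F test) and other genes (2.39%). Protein-coding genes were called more often (22.04%).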

Additional observations from a re-analysis of the deposited data

Results flagged for a closer look

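Of the protein-coding genes that averaged at least 5 CPM and in which the libraries of one code went opposite ways in the 2 treatments, the 5 with the largest product of the opposite differences are given, each measured as the log2 CPM difference from the other codes of its treatment. With 1 library per code and treatment these differences between treatments were not tested. PTGS2, the inducible cyclooxygenase, stood at -1.374 in siCTR A and 0.276 in siCRP2 A (4.54, 9.09 and 15.6 CPM in siCTR and 6.24, 4.32 and 6.12 CPM in siCRP2 for codes A, B and C). CSF2, the cytokine GM-CSF, stood at -1.486 and 0.222 (20.7, 55.9 and 60.2 CPM in siCTR and 34.7, 29.9 and 29.7 CPM in siCRP2). TMTC2 stood at -0.547 and 0.598 in A. For code B, GDF5, a ligand of the BMP family, stood at -0.611 in siCTR and 0.384 in siCRP2. NOX5, an NADPH oxidase, stood at 0.923 in siCTR B and -0.246 in siCRP2 B, at 30.4, 40.5 and 14.9 CPM in siCTR and 4.39, 2.82 and 2.56 CPM in siCRP2. GDF5 and NOX5 were nevertheless called in edgeR's F test over codes (adjusted p = 7.4e-06 and 4.9e-12), whose code terms are shared by both treatments. PTGS2, CSF2 and TMTC2 were not called.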

How the results depend on the processing

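No paired analysis was possible because the columns carry none of the replicate numbers of the labels and the code is itself the factor compared. Of the 7 counts of called genes, RLE scaling, no filter, thinning, the non-robust fit and the GC and length offset moved none by over 1.5 times. DESeq2 called 1490 genes in the test over all codes, 636 for B against A, 1608 for C against A, 194 for C against B, and 1400, 145 and 942 for A, B and C against the others. With filterByExpr 378 genes differed for C against B and 215 for B against the others, and with limma-voom 559 and 387. Without treatment in the edgeR model 0 genes were called in all 7 (unadjusted p under 0.05 in 498 for the test over all codes and in 269 to 891 for the others), since the treatment difference then counted as spread. Leaving out 1 library gave 1647 to 3337 genes in the test over all codes, 592 to 1770 for B against A, 879 to 3022 for C against A, 171 to 1347 for C against B, 1256 to 2569 for A, 129 to 887 for B and 342 to 2672 for C against the others. The correlation of C and B differences between treatments was 0.576 over genes that averaged 10 CPM or more. Of 161 values of single genes, that of PSMA6 for A changed sign, to 0.021 without siCTR A (-1.068 to 0.021 over the omissions). PSMA6 in A differed from the other codes by -1.06 in siCTR and 0.04 in siCRP2 (log2 CPM). Without siCTR A its difference was thus near 0, and why siCTR A was low was not tested. DESeq2 left 30 of the 161 no longer called and the omission of siCTR C left 40. A code is 2 libraries, so what a code shares cannot be told apart from what these libraries share by their handling.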
